A study of Rattus norvegicus and Mus musculus with 251 samples.

Results

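The genes described here are the potassium channel genes of the mouse, taken as every protein-coding gene whose symbol starts with Kcn in the count table, apart from Kcnj3, Kcnj6, Kcnj9 and Kcne2. They numbered 90 of the 46078 genes in the table. RNA had been extracted from punches 0.5 mm wide of male and female C57BL6J mice, giving 30 libraries of prefrontal cortex (PFC) and 32 of nucleus accumbens (NAc), and total RNA was sequenced as read pairs of 75 bases. The animals had drunk a saline solution (label Sal) or a morphine solution. The morphine groups were taken during chronic drinking (Chronic mor), 24 h after it (Mor + 24h) or 2 weeks after it (Mor + 2W). PFC held 6 libraries of saline, 8 of chronic morphine, 9 at 24 h and 7 at 2 weeks, and NAc held 7, 8, 9 and 8 in the same order, with 3 to 5 libraries of each sex in each group. All groups shared the strain, and the labels give no dose, duration of drinking or age.

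Potassium channels let potassium ions leave the cell down their gradient, which returns the membrane toward rest and sets how readily a neuron fires. The voltage-gated families (Kcna, Kcnb, Kcnc, Kcnd, Kcnh, Kcnq) open on depolarisation and shape the action potential and its rate, and the silent subunits (Kcnf, Kcng, Kcns, Kcnv) carry no current alone but join Kcnb pores and alter them. Calcium- and sodium-activated channels (Kcnma, Kcnn, Kcnt) couple firing to the ions it lets in. Kcnu1, a relative known mainly from sperm, responds to alkaline pH and voltage and is only grouped with them here. Inward rectifiers (Kcnj) hold the resting potential and in astrocytes take up potassium, two-pore channels (Kcnk) carry leak current, and auxiliary subunits (Kcnab, Kcne, Kcnip, Kcnmb) change the gating or traffic of a pore.

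Pore-forming subunits share a selectivity filter, the short loop that lets potassium pass and keeps sodium out. Its coding sequence was searched in the coding strand and reading frame of the annotated transcripts for the 6 motifs ACNNNNGGNTANGGN, ACNNNNGGNTTNGGN, TCNNNNGGNTANGGN, TCNNNNGGNTTNGGN, AGNNNNGGNTANGGN and AGNNNNGGNTTNGGN. At least 1 match was found in 74 of the 90 genes, namely all 30 voltage-gated, 10 silent, 8 calcium- or sodium-activated, 12 inward rectifier and 14 two-pore genes, and in 0 of the 15 auxiliary genes and not in Kcnrg. Among all protein-coding genes searched, 783 of 21782 (3.59%) held a match. 2 or more matches were found in 11 of the 14 two-pore genes, whose proteins carry a pair of pore loops, and in 1 voltage-gated gene. The set of motifs was widened after seeing which pore genes lacked a match, so the count over the channel genes is a description and not a finding. The first match is shown for 5 genes, chosen to represent the pores of families with strong differences below, with the motif in capitals and in the 5′ to 3′ direction of the transcript.
Kcna5, chr6:126533742-126533771, minus strand, exon 1 of 1: gtcactatgaccACTGTAGGCTACGGGgac
Kcnh7, chr2:62777340-62777369, minus strand, exon 8 of 16: agcagtctaaccAGTGTAGGATTTGGAaat
Kcnma1, chr14:23528410-23528439, minus strand, exon 8 of 31: gtcacaatgtctACAGTGGGTTATGGGgac
Kcnj5, chr9:32322556-32322585, minus strand, exon 3 of 4: gagacagaaacaACCATTGGGTATGGCttc
Kcnk4, chr19:6928144-6928300, minus strand, starting in exon 3 of 7 and crossing 1 intron: accatcatcactACCATCGGCTATGGCaat
All 5 lie in coding exons, with positions in the GRCm38 build and exons counted in the GENCODE M21 transcript used. Kcnh7 matched AGNNNNGGNTTNGGN and the other 4 matched ACNNNNGGNTANGGN, so the codons GGN, for the glycines of the filter, stand at the same places in every line.

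The libraries held 5182601 to 41532464 gene counts in PFC and 22387525 to 43963295 in NAc. The 90 genes took a median of 0.597% of the counts in PFC and 0.474% in NAc. The labels call the cell type neuron, but astrocyte and oligodendrocyte markers were present in every library, with Aqp4 at 5.38 to 7.15 log2 CPM (counts scaled to library size, with a prior count of 2) in PFC and 5.69 to 6.97 in NAc. The PFC library numbered 10 (2 weeks, female) stood apart, with 5182601 counts, 10563 genes with a count and 21.1% of its reads not aligned. 4 NAc libraries had a low striatal marker score (the mean log2 CPM of 6 markers of striatal projection neurons, among them Drd1, Drd2, Adora2a, Ppp1r1b and Rgs9), at 4.21 to 5.94 against 6.85 to 9.10 in the other 28. These were the saline libraries 2 and 6, the 24 h library 23 and the chronic library 25. The PFC library 25, also chronic, had the lowest cortical marker score of its region, at 6.69. Cortical Slc17a7 was at 10.48 to 11.85 log2 CPM in PFC and reached 9.22 in NAc, and striatal Drd1 was at 3.17 to 8.17 in NAc and at most 3.21 in PFC. The labels do not say that libraries of a group came from separate animals, so p-values here measure only the spread between these libraries.

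Genes entered a test where their counts passed edgeR's filter on low values. Of the 90 genes, 79 were tested within PFC, 80 within NAc and 81 across both, and 9 passed in no fit (Kcna7, Kcne1, Kcnj1, Kcnj15, Kcnk15, Kcnk16, Kcnk18, Kcnmb3 and Kcnv2). Kcne1 had 0 counts in all 62 libraries. A gene is said to be called where its edgeR quasi-likelihood p, adjusted by the Benjamini-Hochberg method over all genes tested, was under 0.05. The annotated spans of 40 of the 90 genes overlap another gene, on the other strand for 36 of them. Whether the authors counted by strand is not given in the sources used here, and counts of those 40 genes are uncertain to that extent.

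The genes differed widely in level. On the scale of CPM per kilobase of exon averaged over the 62 libraries, 28 of the 90 genes reached 10, 64 reached 1 and 77 reached 0.1. Kcnab2, which encodes a beta subunit of Kcna channels, was highest at 96.0 CPM per kilobase. It was followed by the inward rectifier Kcnj4 at 71.6, the glial inward rectifier Kcnj10 at 48.2, the Kcnd partner Kcnip2 at 42.1, the two-pore gene Kcnk1 at 41.6 and the axonal voltage-gated gene Kcna1 at 41.5. These 6 levels were not all distinct beyond their spread: in PFC, Kcnk1 was at 53.7 ± 6.66 (SD, n = 30) and Kcna1 at 49.2 ± 10.6, and in NAc Kcnab2 was at 53.4 ± 7.01 (SD, n = 32) and Kcnip2 at 53.3 ± 23.6. Within PFC Kcnab2 stood alone at 142 ± 15.3 (SD, n = 30), and within NAc Kcnj4 was the highest at 68.7 ± 32.3 (SD, n = 32).

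**Figure D1:**
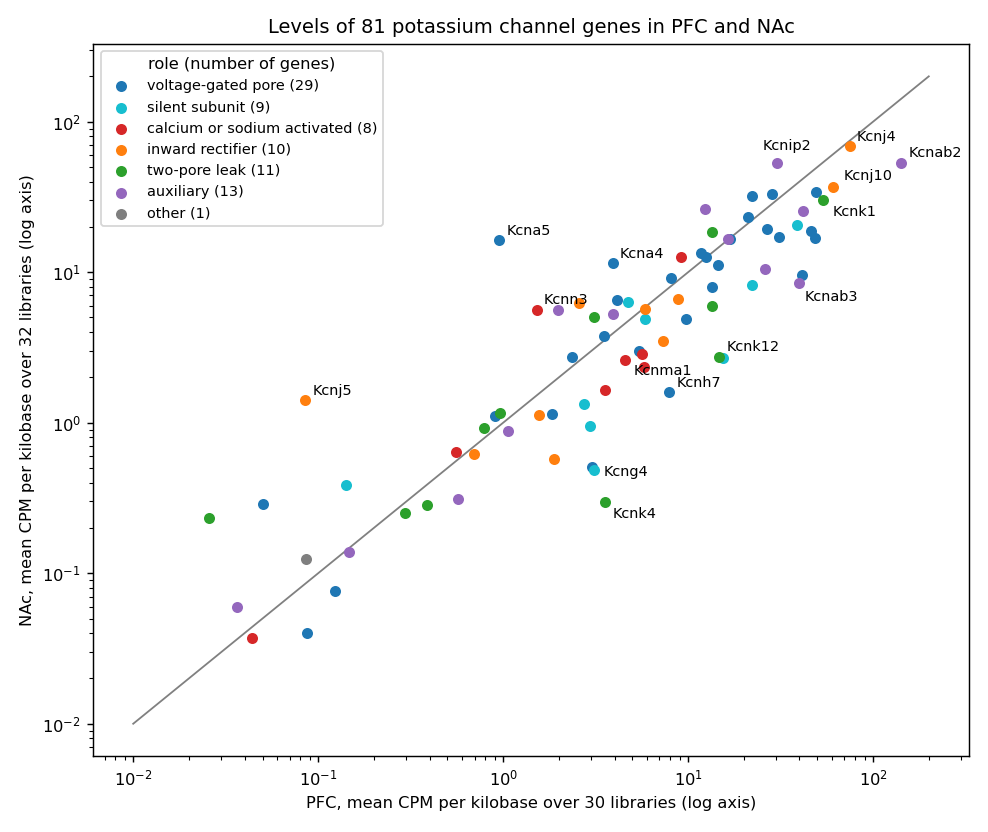
Mean level of each of the 81 potassium channel genes tested, in CPM per kilobase of exon on log axes, PFC (30 libraries) on the horizontal and NAc (32 libraries) on the vertical axis, coloured by role, with the line of equal level. Kcnab2 lies at 142 in PFC and 53.4 in NAc, and Kcna5 and Kcnj5 lie far above the line.

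The channel genes expressed in NAc differed from those in PFC in most families. Averaged over the 4 treatments and both sexes, 64 of the 81 genes tested were called, 24 higher in NAc and 40 lower, where 66.2% of all 19266 genes tested were called (36.5% higher, 29.7% lower). Called members thus made up 79.0% of those tested, with 29.6% higher and 49.4% lower. The share called lower was above that of all genes and the share called higher was below it, a description with no test of the list. Their median log2 fold change was -0.293, and that of all genes tested was 0.07. In bulk tissue fewer cells of a type and less RNA per cell cannot be told apart, which holds for each difference below. In the saline libraries alone, as a contrast of the same fit, 45 of the 81 genes were called (15 higher, 30 lower) where 35.9% of all genes were (17.4% higher, 18.5% lower), and the median was -0.341. Those members were 55.6% of the 81, with 18.5% higher and 37.0% lower. All 45 were among the 64, and of the 19 others 18 kept their sign. By role, the saline contrast called 15 of 29 voltage-gated, 6 of 9 silent, 6 of 8 calcium- or sodium-activated, 4 of 10 inward rectifier, 6 of 11 two-pore and 8 of 13 auxiliary genes. Of the genes described below as higher or lower, Kcna3, Kcnd1, Kcnc1, Kcnc2, Kcnb2, Kcns2, Kcnj13, Kcnj16, Kcnk2 and Kcnip2 were not called in it.

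**Figure D2:**
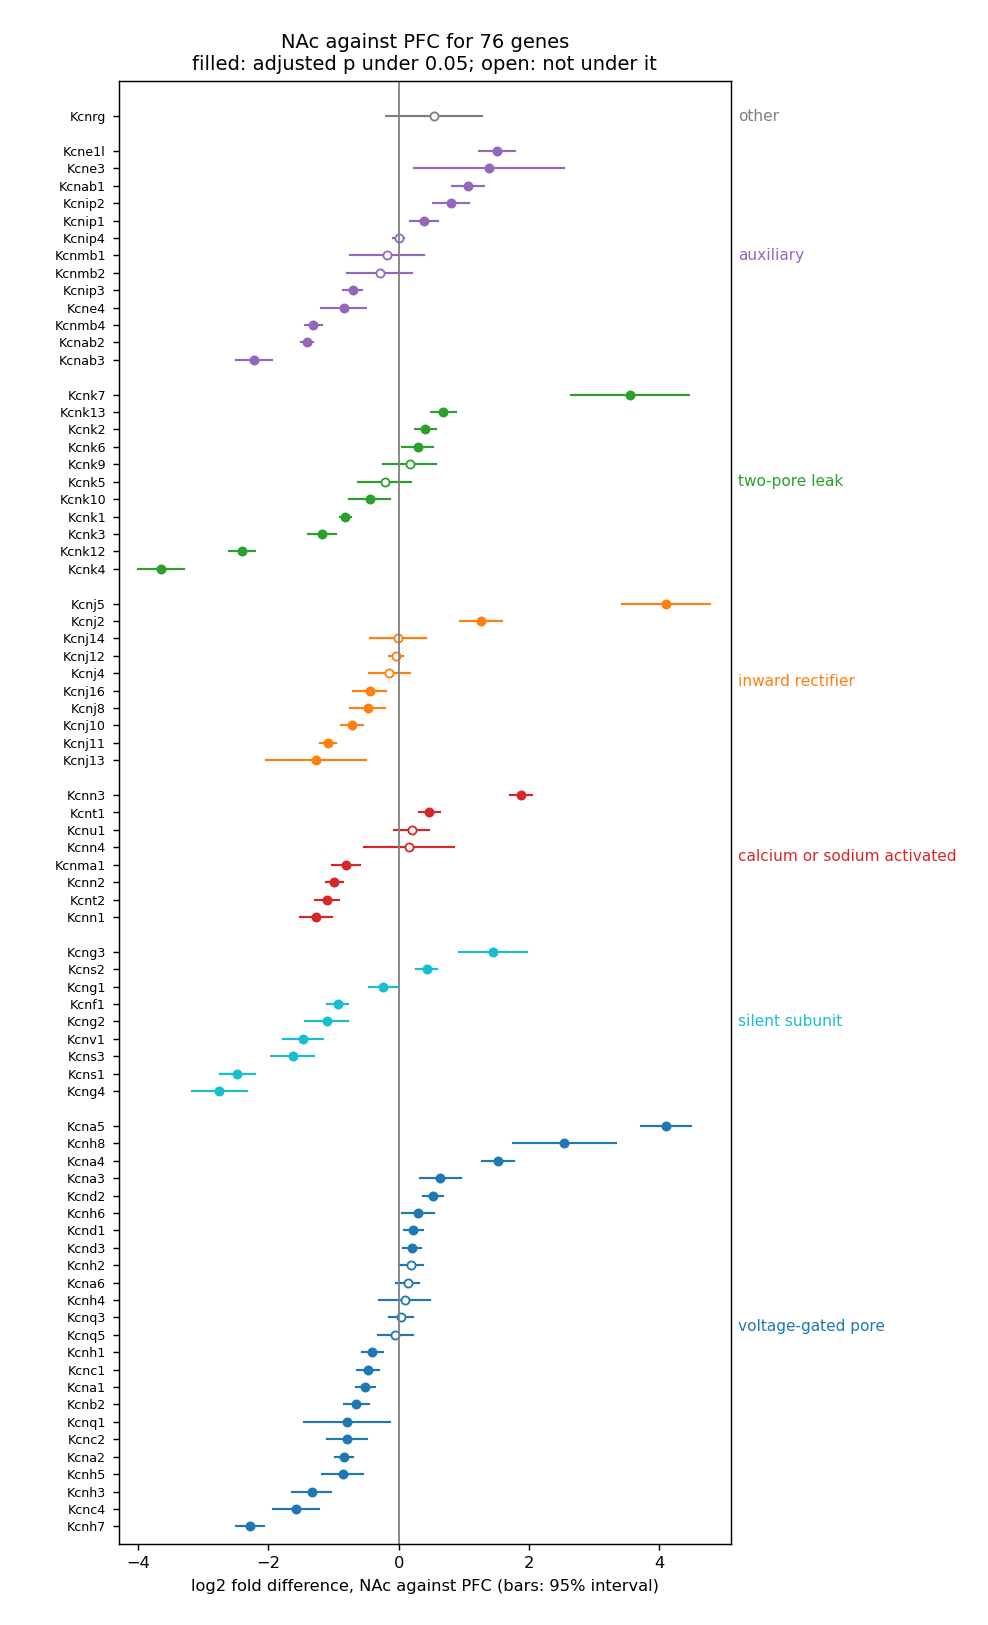
Log2 fold change of NAc against PFC with its 95% interval for 76 of the 81 genes tested, ordered by role. Kcna10, with a standard error too large to draw, is not among them. Points right of 0 are higher in NAc, led by Kcna5 at 4.11 and Kcnj5 at 4.10, and Kcnk4 at -3.65 is the lowest.

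Among the pore-forming voltage-gated genes, 23 of 29 were called, 9 higher in NAc and 14 lower. This count and those of the other roles and families below stand beside 66.2% of all genes tested (36.5% higher, 29.7% lower). The Shaker gene Kcna5 (ENSMUSG00000045534), which encodes a delayed rectifier, had 3.37, 5.48 and 6.38 log2 CPM as its lowest, median and highest values in NAc and -0.21, 1.33 and 3.03 in PFC. Every NAc library lay above every PFC library, and the log2 fold change was 4.11 ± 0.19 (SE, edgeR adjusted p = 1.32e-25). Kcna4, the fast-inactivating Shaker subunit, was higher by 1.52 ± 0.12 (SE, log2), and Kcna3 by 0.64 ± 0.15. By contrast the axonal subunits Kcna1 and Kcna2 were lower in NAc, with log2 fold changes of -0.51 and -0.84. The lowest, median and highest values of Kcna1 were 7.07, 7.83 and 8.47 log2 CPM in PFC and 6.38, 7.28 and 8.04 in NAc, so the regions overlapped. All 3 Kcnd genes, which encode the A-type current of dendrites, were higher in NAc, Kcnd2 by 0.53, Kcnd1 by 0.23 and Kcnd3 by 0.20 on the log2 scale.

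Channels of the Kcnc family let neurons such as fast-spiking interneurons fire at high rates. Kcnc4, Kcnc2 and Kcnc1 were lower in NAc, at -1.57 ± 0.17, -0.80 ± 0.15 and -0.47 ± 0.08 (SE, log2). Kcnb2, a somatic delayed rectifier, was lower as well, at -0.66. In the Kcnh family, which holds the EAG, ERG and ELK channels, 6 of 8 genes were called. Kcnh7, an ERG channel, was the lowest of them at -2.28 ± 0.11, with 6.07, 6.87 and 7.54 log2 CPM in PFC and 3.83, 4.53 and 5.43 in NAc and no overlap. The ELK gene Kcnh3 was at -1.33 ± 0.15 (SE, log2). Kcnh8, chosen after its values were seen, was higher at 2.54 ± 0.40 but at a median of only 0.27 log2 CPM in NAc. Kcnq3 and Kcnq5, subunits of the M-current that muscarinic receptors inhibit, were not called, at 0.03 ± 0.09 and -0.05 ± 0.13.

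All 9 silent subunits tested were called over the 4 treatments, 7 of them lower in NAc, with a median log2 fold change of -1.11. Of all genes tested 66.2% were called, 29.7% as lower, with a median of 0.07. In the saline contrast 6 of the 9 silent subunits were called, 1 higher and 5 lower, where 35.9% of all genes were called. Kcng4 was at -2.75 ± 0.21 (SE, log2), Kcns1 at -2.48 ± 0.14, Kcns3 at -1.63 ± 0.16, Kcnv1 at -1.47 and Kcnf1 at -0.94. Kcns1 had 3.35, 5.42 and 5.77 log2 CPM as its lowest, median and highest values in PFC and 0.65, 2.82 and 3.84 in NAc. The regions overlapped only through the PFC library at 3.35, number 25. The exceptions were Kcng3 at 1.44 and Kcns2 at 0.43.

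Of the calcium- and sodium-activated genes, 6 of 8 were called, 2 higher and 4 lower. Kcnn3 (ENSMUSG00000000794), the small-conductance channel SK3, ran from 4.88 through a median of 5.88 to 6.50 log2 CPM in NAc and from 2.74 through 3.99 to 4.60 in PFC. Every NAc library exceeded every PFC library, and the log2 fold change was 1.87 ± 0.09 (SE, edgeR adjusted p = 8.65e-26). Its relatives went the other way, Kcnn1 at -1.27 ± 0.12 and Kcnn2 at -0.99 ± 0.06. The sodium-activated genes also parted, Kcnt1 at 0.47 and Kcnt2 at -1.10. Kcnma1, the large-conductance BK channel, had a log2 fold change of -0.81 ± 0.11 (SE), and its neuronal beta subunit Kcnmb4 one of -1.31 ± 0.07.

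Of the inward rectifiers, 7 of 10 were called, 2 higher and 5 lower. Kcnj5 (ENSMUSG00000032034), a G protein-gated subunit, had -0.46, 2.71 and 3.65 log2 CPM in NAc and -3.96, -1.72 and 1.80 in PFC. A value of -3.96 stands for 0 counts. 5 NAc libraries lay below the highest PFC library, number 25, and 1 lay below the next highest, at 0.17, and the log2 difference was 4.10 ± 0.33 (SE, adjusted p of edgeR 7.29e-16). Kcnj2, a strong rectifier, was higher in NAc by 1.26 ± 0.16. Kcnj11, the pore of the ATP-sensitive channel, was at 4.36, 4.73 and 5.65 log2 CPM in PFC and 3.09, 3.71 and 3.99 in NAc without overlap, a log2 fold change of -1.08 ± 0.06. The astrocyte gene Kcnj10 was at -0.72 ± 0.09 and its partner Kcnj16 at -0.45 ± 0.13. Kcnj4, the inward rectifier with the highest level, was not called at -0.15 ± 0.16 (edgeR adjusted p = 0.413). Kcnj13, which the choroid plexus expresses, was called at -1.27 ± 0.38, with medians of 0.17 log2 CPM in PFC and -1.38 in NAc. Its highest PFC library was at 5.26 log2 CPM, and there the choroid plexus gene Ttr was at 11.62. Over all libraries Ttr had a median of 1.91 log2 CPM in PFC and 5.39 in NAc. Of 4 choroid plexus markers 3 were called higher in NAc and 0 lower. The part of the highest PFC library in the result was not tested.

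The two-pore genes held the lowest fold change of the 81 genes. Kcnk4 (ENSMUSG00000024957), the mechanically gated channel TRAAK, had 2.95, 3.99 and 4.73 log2 CPM in PFC and -2.02, 0.57 and 1.72 in NAc. No NAc library reached a PFC library, and the log2 fold change was -3.65 ± 0.18 (SE, edgeR adjusted p = 6.82e-25). Kcnk12 was at -2.40 ± 0.10, also without overlap, Kcnk3 (TASK-1) at -1.18 ± 0.10 and Kcnk1 (TWIK-1) at -0.82 ± 0.04. Kcnk13 was higher in NAc by 0.68, Kcnk2 (TREK-1) by 0.41 and Kcnk7 by 3.54, the last at a NAc median of -1.20 log2 CPM and chosen after its values were seen. In all, 9 of 11 two-pore genes were called, 4 higher and 5 lower.

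**Figure D3:**
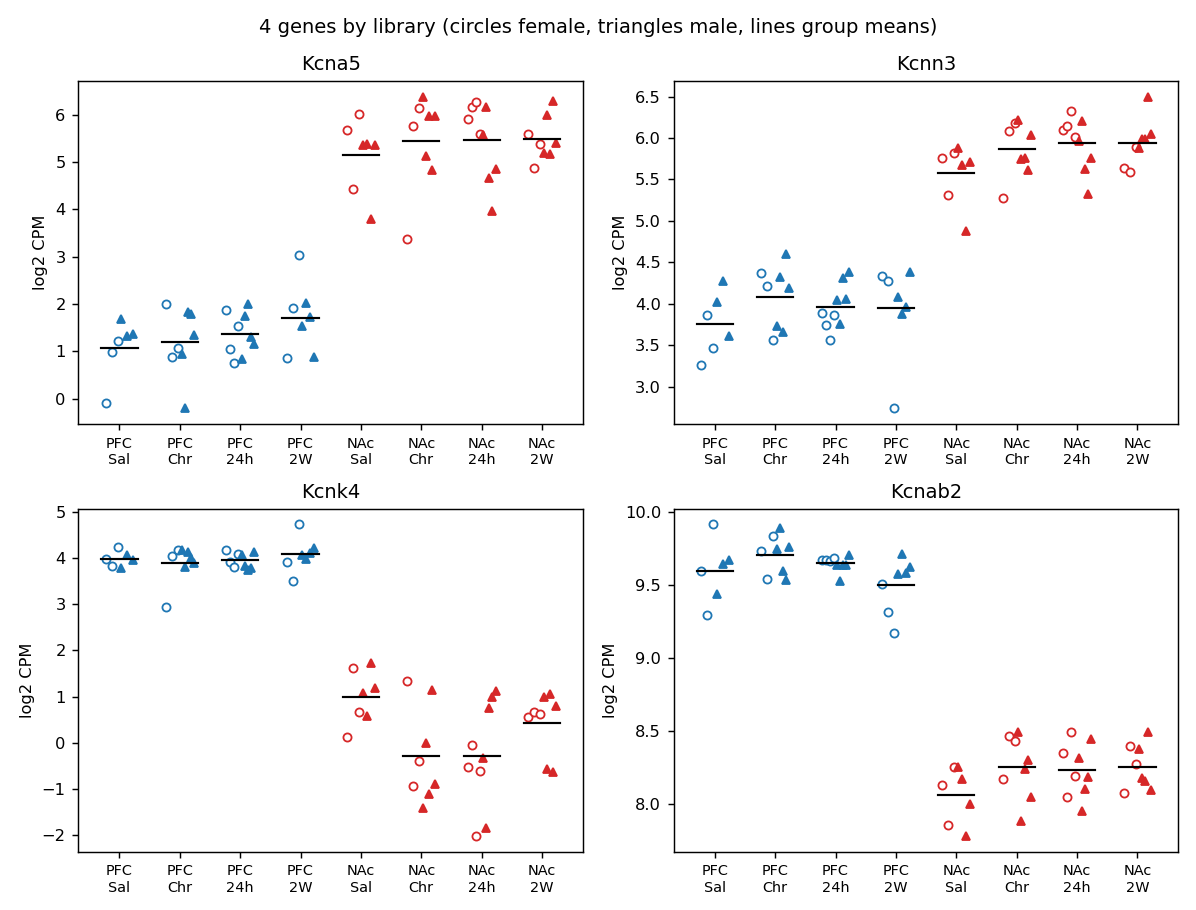
Log2 CPM in each library of Kcna5, Kcnn3, Kcnk4 and Kcnab2 by region and treatment, with females as circles, males as triangles and each group's mean as a line. The 32 NAc libraries of Kcna5 and Kcnn3 lie above all 30 PFC libraries, and those of Kcnk4 and Kcnab2 lie below them, in each of the 4 treatments.

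Of the auxiliary subunits, 10 of 13 were called, 5 in each direction. Kcnab2 (ENSMUSG00000028931) was at 9.17, 9.64 and 9.91 log2 CPM in PFC and 7.78, 8.19 and 8.49 in NAc. The regions did not overlap, and its log2 difference of -1.40 ± 0.04 (SE, adjusted p of edgeR 1.21e-32) had the smallest p of the 81 genes. The other beta subunits of Kcna channels split, Kcnab3 at -2.23 ± 0.14 and Kcnab1 at 1.06 ± 0.12. The Kcnd partners Kcnip2 and Kcnip3 also split, at 0.80 ± 0.14 and -0.70 ± 0.07, and Kcnip4 was not called at -0.002 ± 0.04. For Kcnip2 the value in the saline contrast was 0.40 with an adjusted p of 0.297. Kcne1l, a small single-span subunit, was higher in NAc by 1.505 ± 0.14. Kcnrg, which regulates channel assembly, was not called at 0.54 ± 0.37.

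Groups that did not overlap at all were counted over all libraries. This held for 9 of the 81 genes (11.1%), against 4.3% of all genes tested. Kcna5 and Kcnn3 lay above in NAc, and 7 genes lay above in PFC, among them Kcnab2, Kcnh7, Kcnj11, Kcnk12, Kcnk4 and Kcnmb4. Without PFC library 10 it held for 15 genes (18.5%), against 5.63% of all genes.

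The 4 NAc libraries with a low striatal score were also low in some channel genes and high in others. For 15 of the 80 genes tested in NAc all 4 lay below the other 28 libraries, and for 0 all 4 lay above them. Those shares of 18.8% and 0% stood beside 3.92% below and 0.865% above among the 18382 genes tested in NAc. The 15 included Kcna4, Kcna5, Kcnab1, Kcnh1, Kcnh3, Kcnh4, Kcnip2, Kcnj2, Kcnj4, Kcnn3, Kcnq3, Kcnq5, Kcns2 and Kcnv1. Kcna5 was at 3.37 to 4.43 log2 CPM in the 4 and at 4.65 to 6.38 in the 28, and Kcnj4 at 4.68 to 5.67 against 6.19 to 8.19. Other genes came close to lying above. Kcnk3 was at 5.05 to 5.39 log2 CPM in the 4 and reached 5.07 in the 28. Kcna6 was at 7.49 to 7.86 in the 4 and reached 7.56 in the 28. On a weaker measure, all 4 lay above the median of the 28 for a number of genes. Among these were Kcnc2, Kcnc4, Kcnh2, Kcnip1, Kcnj10, Kcnj16, Kcnk9 and Kcnk10. The share of all genes on this measure was not counted. Kcnj4, Kcnq3 and Kcnq5 are among the genes that were low in these 4 libraries, and their regional difference was not called. A fit without these 4 libraries called 63 of the 81 genes in NAc against PFC, of which 62 were among the 64. The values it gave Kcnj4, Kcnq3 and Kcnq5 were not compared, so the part of the low values in their result was not tested.

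The second question was whether channel genes differed from saline during chronic morphine or after it. In PFC, edgeR called 0 of the 79 genes under chronic morphine, where 0.417% of all genes tested were called. At an unadjusted p under 0.05 there were 11 of the 79, where 7.91% of all genes were, and DESeq2 called 1, Kcnd3. At 24 h 0 were called, where 0.0779% of all genes were, with 1 at an unadjusted p under 0.05 (3.01% of all genes) and 0 by DESeq2. At 2 weeks 0 were called, where 0.00557% of all genes were, with 5 at an unadjusted p under 0.05 (5.04% of all genes) and 0 by DESeq2. The median log2 fold change of the 79 genes was 0.184 under chronic morphine, and that of all genes tested was 0.009. Above 0 were 60 of the 79 genes and 9257 of all 17966 genes tested. At 24 h the medians were 0.052 and 0.013, with 59 of the 79 and 9653 of the 17966 above 0. At 2 weeks they were -0.01 and -0.045, with 37 of the 79 and 7452 of the 17966 above 0. By role, the chronic medians in PFC were 0.234 for the 29 voltage-gated genes, 0.17 for the 9 silent, 0.253 for the 8 calcium- or sodium-activated, 0.311 for the 10 inward rectifier, 0.02 for the 10 two-pore and -0.053 for the 12 auxiliary genes.

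Kcnd3, an A-type channel subunit, had the smallest p in PFC. Its lowest, median and highest values were 5.49, 5.97 and 6.38 log2 CPM in saline and 6.10, 6.56 and 6.84 under chronic morphine. The groups overlapped, and the log2 fold change of 0.58 ± 0.16 (SE) had an edgeR adjusted p of 0.122 and a DESeq2 adjusted p of 0.0403. Kcnj10, chosen after its values were seen, had 7.96, 8.18 and 8.44 log2 CPM in saline and 8.42, 8.62 and 9.37 under chronic morphine. Its groups met only at their ends, and the log2 fold change of 0.51 ± 0.14 had an edgeR adjusted p of 0.134. Beside these values, the summed level of the 5 astrocyte markers was 2643 to 3304 CPM in saline and 2402 to 3595 under chronic morphine, and 0 of the 5 were called. Their part in the result was not tested.

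Kcng1, a silent subunit, had 3.91, 4.34 and 4.74 log2 CPM in saline and 4.63, 4.86 and 5.06 under chronic morphine, overlapping at the ends. Its log2 fold change was 0.47 ± 0.19 (SE, edgeR adjusted p = 0.513). Without the shallow PFC library 10, which is in neither group but enters the fit, Kcng1 was the 1 gene called, again at 0.47.

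The remaining genes that had the smallest p of a direction in PFC did not pass the test either. The Kcnd partner Kcnip4 had -0.16 ± 0.10 under chronic morphine (SE, edgeR adjusted p = 0.761). Kcnip2, the lower gene at 2 weeks, had log2 fold changes of -0.307 to -0.108 when each PFC library was left out in turn. The smallest edgeR adjusted p of those fits was 0.468. At 24 h Kcng1 had 0.41 ± 0.18 and its relative Kcng4 -0.31 ± 0.20 (SE, log2), both with an edgeR adjusted p of 1. At 2 weeks Kcnn4, the intermediate-conductance calcium-activated channel, had 2.71 ± 0.85 (SE, log2; edgeR adjusted p = 0.854), with saline at -3.96 to -2.17 and 2 weeks at -3.96 to 0.18 log2 CPM, so near 0 counts in both groups.

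In NAc, edgeR called 1 of the 80 genes under chronic morphine, where 1.69% of all genes tested were called, so that the share was near the background. DESeq2 also called 1, and 14 had an unadjusted p under 0.05, where 15.2% of all genes did. At 24 h 0 were called, where 0.163% of all genes were, with 8 at an unadjusted p under 0.05 (12.1% of all genes) and 1 by DESeq2. At 2 weeks 0 were called, where 0.00544% of all genes were, with 5 at an unadjusted p under 0.05 (6.44% of all genes) and 0 by DESeq2. The median log2 fold changes were 0.066 under chronic morphine, 0.024 at 24 h and 0.061 at 2 weeks, against -0.009, -0.008 and 0.001 for all genes tested.

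**Figure D4:**
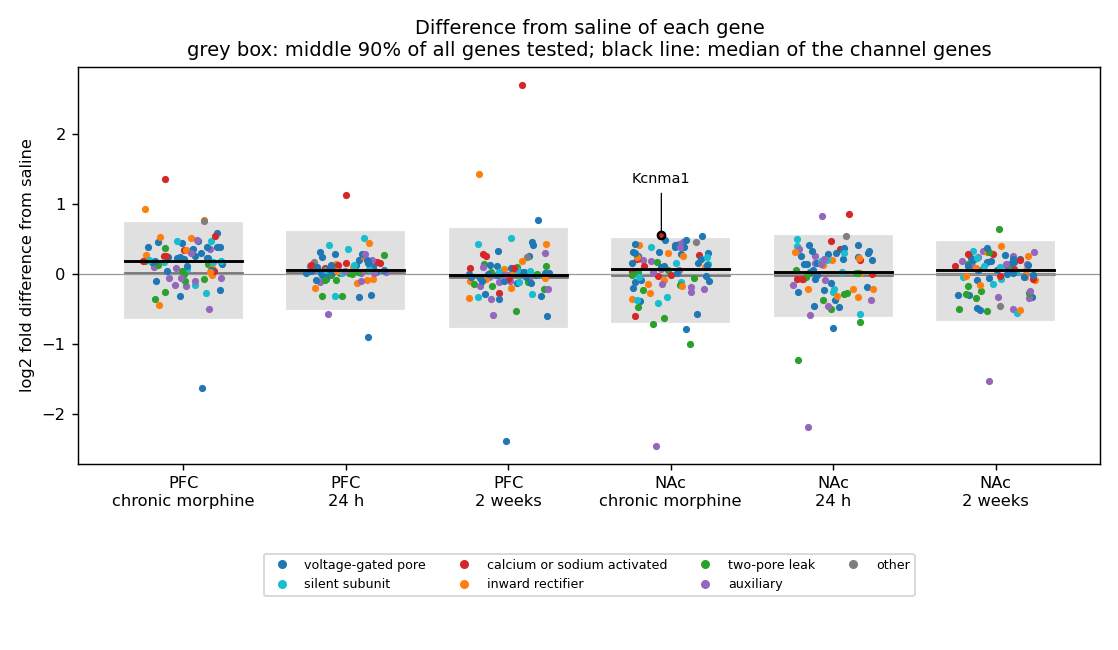
Log2 fold change against saline of the potassium channel genes tested in each region under chronic morphine, at 24 h and at 2 weeks, with 1 point per gene coloured by role, the median of these genes as a black line, and the middle 90% of all genes tested as a grey box with their median. Kcnma1 at 0.56 in NAc under chronic morphine is the only point called by edgeR.

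The gene called was Kcnma1 (ENSMUSG00000063142, chromosome 14, 23289431 to 24014491 on the minus strand, overlapping 4 genes of the other strand), the BK channel that opens with calcium and voltage together and shortens action potentials. Its 7 saline libraries in NAc were at 4.76, 4.87, 5.11, 5.13, 5.21, 5.23 and 5.43 log2 CPM. The 8 chronic libraries were at 5.16, 5.44, 5.46, 5.63, 5.65, 5.69, 5.91 and 6.03 log2 CPM. The lowest saline value, 4.76, and the highest chronic value, 6.03, were both from libraries of low striatal score. All chronic libraries but the male library at 5.16 lay above the highest saline library. The sex-averaged log2 fold change was 0.56 ± 0.14 (SE), with an edgeR adjusted p of 0.0307 and a DESeq2 adjusted p of 0.00509.

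At 24 h the 9 NAc libraries of Kcnma1 ranged from 5.36 through a median of 5.55 to 5.90 log2 CPM, all but the lowest above the highest saline library. The log2 fold change was 0.47 ± 0.13 (SE), with an edgeR adjusted p of 0.146 and a DESeq2 adjusted p of 0.0439. At 2 weeks the 8 libraries ranged from 4.62 through 5.34 to 5.91 log2 CPM, across the whole saline range, at 0.20 ± 0.14 (SE, edgeR adjusted p = 0.877). These 3 contrasts share their saline libraries. In PFC the saline libraries were at 5.56 to 6.38 and the chronic ones at 5.88 to 6.98 log2 CPM, overlapping, and differed by 0.54 ± 0.28 (SE, log2; edgeR adjusted p = 0.657). PFC at 24 h held 1 low library, number 20, at 4.19. The difference between the chronic effects of NAc and PFC was 0.03 ± 0.31 (SE, log2; edgeR adjusted p = 1).

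**Figure D5:**
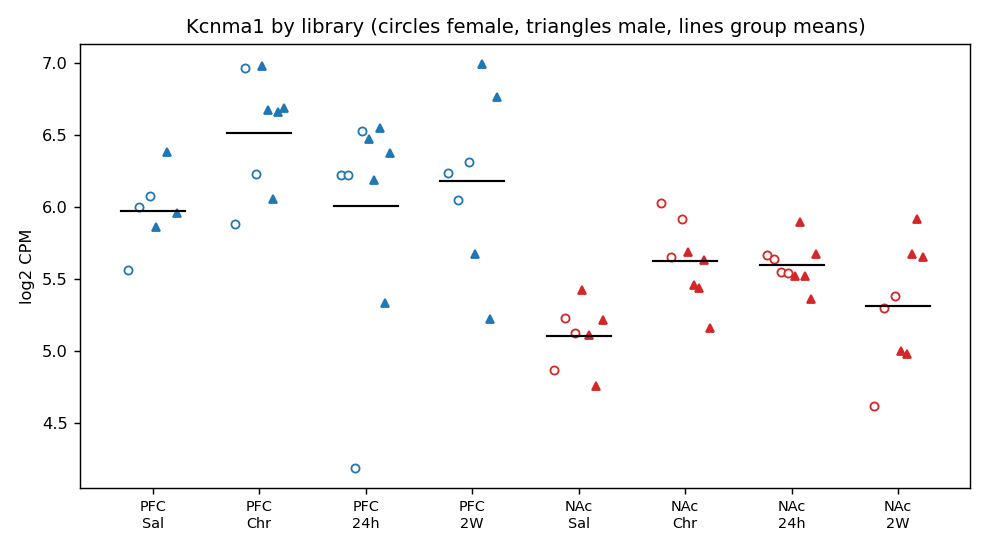
Kcnma1 in log2 CPM in each library by region and treatment, with females as circles, males as triangles and each group's mean as a line. In NAc the saline libraries lie at 4.76 to 5.43, the chronic ones at 5.16 to 6.03 and the 24 h ones at 5.36 to 5.90, and the PFC groups have higher medians and wider ranges.

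The call of Kcnma1 in NAc under chronic morphine was lost under several alternatives. Leaving out each NAc library in turn gave log2 fold changes of 0.50 to 0.62 and adjusted p of 0.019 to 0.107. The call was lost without saline library 1 (0.107), 3 (0.0583), 5 (0.0538) or 6 (0.0735) and without chronic library 27 (0.081) or 28 (0.055). Striatal markers were also higher in the chronic NAc libraries by a median of 0.564 on the log2 scale over 8 genes, of which 0 were called, and their summed level was 383 to 4915 CPM in saline and 413 to 7676 under chronic morphine. With the striatal score as a covariate the log2 fold change was 0.54 (edgeR adjusted p = 0.0198). Without the 4 libraries of low striatal score, an alternative chosen after seeing the data, it was 0.51 ± 0.16 (SE, edgeR adjusted p = 0.132).

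A set of 8 genes, 5 of them pseudogenes, was on in some libraries and off in others, and this state followed the groups in part. The genes were taken from 19 chosen for splitting the libraries alike in PFC and NAc at each of 29 shared numbers, so that same-numbered libraries have the same state by construction, and PFC library 10 was given the state of NAc library 10. All chronic libraries and the saline males were in one state, and the saline females and all 2 week libraries in the other. At 24 h the females and the males 22, 23 and 24 were in the first and the males 16 and 17 in the second. With the state as a covariate the log2 fold change of Kcnma1 under chronic morphine in NAc was 0.66 (edgeR adjusted p = 0.0697). In the males alone, which shared a state and were compared after seeing the data, it was 0.33 ± 0.17 (SE, edgeR adjusted p = 0.497).

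The other genes with the smallest p of a direction in NAc did not pass the test. Kcne3, an auxiliary subunit near its detection limit, had -3.37 to -0.996 log2 CPM in saline and -3.96 to -1.34 under chronic morphine, at -2.45 ± 0.92 (SE, log2; edgeR adjusted p = 0.179). Without the chronic library 30, which held the value of -1.34, its adjusted p was 0.0205. Kcnk4 had 0.12, 1.08 and 1.72 log2 CPM in saline and -2.02, -0.34 and 1.12 at 24 h. Its log2 fold change at 24 h was -1.23 ± 0.45 (SE, edgeR adjusted p = 0.272). With each library left out it ran from -1.374 to -0.952, the latter without saline library 2, of low striatal score. At 2 weeks the BK subunit Kcnmb4 had 0.26 ± 0.09 (SE, log2; edgeR adjusted p = 0.53) and the ERG channel Kcnh6 -0.48 ± 0.20 (SE, log2; edgeR adjusted p = 0.651). Kcna1, chosen after its values were seen, had 6.38, 7.19 and 7.47 log2 CPM in saline and 7.11, 7.47 and 8.04 under chronic morphine, at 0.49 ± 0.16 (SE, edgeR adjusted p = 0.114). Without the chronic library 25, of low striatal score, 3 genes were called, Kcna1 at 0.60, Kcnma1 at 0.52 and Kcnip3, a Kcnd partner, at 0.53 on the log2 scale.

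By role, and with only Kcnma1 past the test, the NAc genes lay on both sides of saline. Under chronic morphine 20 of the 28 voltage-gated genes tested lay above saline, with a median log2 fold change of 0.191. Of the 11 two-pore genes 8 lay below it, with a median of -0.153. Among all 18382 genes tested, 8862 lay above saline and 9520 below it. Medians at 24 h were 0.154 and -0.275 for the same roles, from the same saline libraries. At 2 weeks they were 0.085 and -0.245, with 18 of the 28 above saline and 7 of the 11 below it. The genes with an unadjusted p under 0.05 under chronic morphine, chosen after their values were seen, included the EAG channels Kcnh1 at 0.42 ± 0.17 and Kcnh5 at 0.54 ± 0.20, the M-current subunit Kcnq3 at 0.39 ± 0.17 and the ATP-sensitive pore Kcnj11 at 0.26 ± 0.09 (SE, log2). Below saline were Kcnk4 at -0.997 ± 0.468 and the TREK channel Kcnk10 at -0.63 ± 0.30 (SE, log2). The edgeR adjusted p of the genes named lay between 0.154 for Kcnj11 and 0.325 for Kcnk10. Kcnh1 and Kcnq3 were among the 15 genes low in the libraries of low striatal score, of which 2 were saline and 1 was chronic. In the 4 libraries of low score Kcnk4 and Kcnk10 were instead high, at 0.99 to 1.72 and 1.94 to 2.18 log2 CPM. Their medians in the other 28 were 0.05 and 1.11. A fit without the 4 libraries called 0 genes under chronic morphine. The values it gave the genes named here were not compared, so the part of these libraries in each value was not tested.

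In PFC under chronic morphine, the genes with an unadjusted p under 0.05 all had fold changes above 0, and were likewise chosen after their values were seen. Beside Kcnd3, Kcnj10 and the silent subunits Kcng1 and Kcng4, they included Kcna1 at 0.38 ± 0.14, Kcna2 at 0.34 ± 0.14, Kcnb2 at 0.38 ± 0.18, the inward rectifier Kcnj12 at 0.34 ± 0.13 and Kcnip3 at 0.30 ± 0.14 (SE, log2). The edgeR adjusted p of these 5 lay between 0.43 for Kcna1 and 0.598 for Kcnip3. The 7 cortical excitatory markers had a median of 0.148 in the same contrast and summed to 2316 to 3529 CPM in saline and 1740 to 4430 CPM under chronic morphine, and 0 of the 7 were called. Their part in these values was not tested apart from the score of 5 of them, with which Kcnj10 was called.

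Whether the stages differed from saline in other ways in NAc than in PFC was tested over the 3 stages together. edgeR called 0 of the 81 genes, where 0.0363% of all genes were called, with 3 at an unadjusted p under 0.05 (4.78% of all genes) and 0 by DESeq2. Between the sexes, averaged over the treatments, edgeR called 0 of 79 genes in PFC, where 0.0334% of all genes were called, with 5 at an unadjusted p under 0.05 (4.54% of all genes) and 0 by DESeq2. In NAc it called 0 of 80, where 0.0598% of all genes were called, with 2 at an unadjusted p under 0.05 (4.79% of all genes) and 0 by DESeq2.

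Genes that work beside the potassium channels were described from a list of 21, which included Hcn pacemaker channels, sulfonylurea receptors, dipeptidyl peptidase-like partners of Kcnd and clustering or gamma subunits, of which 19 were tested. In NAc against PFC 16 were called, 4 higher and 12 lower, with a median of -0.324. Of all genes tested 66.2% were called, 36.5% higher and 29.7% lower, with a median of 0.07. The 4 were the pacemaker channels Hcn4 at 2.05 and Hcn3 at 0.995, the axonal clustering protein Cntnap2 at 1.21 and the Kcnd partner Dpp6 at 0.33. Among the 12 lower genes, Lrrc38, a gamma subunit of the BK channel, was at -1.83, the sulfonylurea receptor Abcc8 at -1.65 and the pacemaker channel Hcn2 at -1.02. Abcc8 and Kcnj11, which form 1 channel together, were thus both lower in NAc. Against saline 0 of the 19 were called in any of the 6 contrasts, where 0.00544% to 1.69% of all genes were. The medians of the 19 ran from -0.021 to 0.175.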

How the data were processed

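RNA of 62 mouse libraries was analysed from a table of raw counts per gene deposited by the authors. Per the submitters' processing notes, which give no roles or versions, the series used FastQC, cutadapt, Trimmomatic, STAR, HISAT2 and RSEM with the GRCm38 and Rnor_6.0 builds. Which of them made the mouse counts, and the strand setting, are not given in the sources used here. Rows of the deposited table for reads assigned to no gene were dropped before library sizes were computed. Their median shares in PFC and NAc were 5.36% and 5.47% outside genes, 0.831% and 0.834% ambiguous, 0.604% and 0.540% not aligned, and 13.7% and 15.3% aligned to several places.

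Symbols, positions and transcript sequences came from GENCODE M21 (GRCm38), which matched 45143 of 46078 identifiers. edgeR 4.0.16 (R 4.3.3, limma 3.58.1) was fitted to all libraries of a region, or of both, after filterByExpr and TMM scaling, with a mean for each treatment and sex, and contrasts were averaged over the sexes. The Benjamini-Hochberg adjustment ran over all genes tested, with a threshold of 0.05. Fold changes are NAc minus PFC or stage minus saline on the log2 scale. The alternatives run were DESeq2 1.42.0, its size factors within edgeR, no filter on low counts, the on or off state, marker scores, saline libraries alone, a replicate block and leaving out each library. The scripts were tested on simulated data.

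The genes, lists and tests were chosen with earlier results of these data known. Named by rule were called genes of a stage contrast, the gene with the smallest p in each direction of each stage contrast, the 10 largest regional differences each way at a mean of at least 1 log2 CPM, and the highest gene of each subfamily. Other genes are named to complete their families and were chosen after their values were seen. No column of a sample was left unused. The rat libraries were not used. Some genes and sequences are not reported here.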

Additional observations from a re-analysis of the deposited data

Results flagged for a closer look

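In groups of 4 to 10 libraries, the gap of the highest or lowest library to its nearest neighbour was set against the range of the group for the genes named in the stage contrasts. For independent, normally distributed values chance gives about 1 such hit in 20 groups, and here 6 of 44 groups had 1. The genes were picked by their p in these same data, and groups of different genes share libraries. The rate of 1 in 20 therefore does not apply here, and no excess can be read from the 6.

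The PFC library 10 of the 2 week group, which was shallow, accounted for 3 of the 6. It held the silent subunit Kcng1 at 5.97 log2 CPM against 4.24 to 4.63 in the other libraries of its group, the Kcnd partner Kcnip2 at 5.77 against 6.47 to 6.96, and Kcnip4 at 5.24 against 5.94 to 6.06. In the same library 26 of the 79 genes tested in PFC had 0 counts, and 20 of these had a count in every other PFC library, while no other PFC library had more than 4 of the 79 at 0.

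The silent subunit Kcng4 was at 4.38 log2 CPM in the PFC saline library 3, against 3.10 to 3.54 in the others. The ERG channel Kcnh6 was at 2.95 in the NAc saline library 6, against 1.85 to 2.16. Kcne3 was at -1.34 in the NAc chronic library 30, against -3.96 to -2.99 in the others, and without that library its log2 fold change under chronic morphine was -4.53 (edgeR adjusted p = 0.0205). The cause of these values was not tested.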

How the results depend on the processing

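For NAc against PFC, 64 genes were called with either set of size factors, 62 without the low-count filter, 63 with DESeq2, 54 in a fit of the saline libraries alone and 61 to 65 when each number was left out. Added after seeing the data, leaving out the 4 NAc libraries of low striatal score gave 63 and leaving out PFC library 10 gave 64. With the title number as a replicate block 63 were called, of which 62 were among the 64, and the test of the difference between regions stayed at 0. The 30 number pairs correlated at 0.01 to 0.22 (median 0.07), 5 of them over 0.1 and 14 best with their own number, which is a hint from the data and not the design. The labels do not say whether a shared number is 1 animal, so the block was kept as an alternative. The p-values reported for NAc against PFC treat same-numbered libraries as separate, which would not hold if they share an animal.

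Under chronic morphine, the PFC count of 0 was 1 with DESeq2 (Kcnd3), 1 with the cortical marker score as a covariate (Kcnj10) and 0 to 1 when each library was left out, the 1 (Kcng1) without PFC library 10. The NAc count of 1 was 0 with the state as a covariate, 2 with the striatal score (Kcnma1 and Kcna1), 0 in the males alone and 0 without the 4 libraries. It ran from 0 to 3 when each library was left out, the 3 (Kcna1, Kcnma1 and Kcnip3) without chronic library 25 and 2 (Kcne3 and Kcnma1) without chronic library 30. At 24 h in NAc DESeq2 called 1 (Kcnma1). The counts of 0 at the other stages and between the sexes held at 0 in every alternative run. For the genes named by rule, outside the fits that left out a library, 205 values kept their direction and side of the threshold, 2 newly passed (Kcnd3 and, at 24 h, Kcnma1, both with DESeq2), 4 no longer passed, 0 changed sign and 3 had no DESeq2 adjusted p. Kcnj10 and Kcna1, which passed with a marker score, are outside this tally. The cause of these shifts was not tested.

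Depth limits the genes near 0 counts (Kcne3, Kcnn4, Kcnk7, Kcna10), and PFC library 10 in particular.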
